A study of Mus musculus with 20 samples.

Results

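The gene segments of the mouse T-cell receptor (TCR) beta locus were examined in RNA sequencing of thymocytes, helper T cells and lymphomas. Members were the rows of the deposited expression table whose Ensembl identifier maps to a symbol that begins with Trbv, Trbd, Trbj or Trbc. The rule found 40 of 39179 rows, made up of 22 Trbv, 2 Trbd, 14 Trbj and 2 Trbc segments. The annotation lists 53 such segments, and the other 13, all of them Trbv and 12 of them pseudogenes, were not analysed here. Of the 40 rows, 29 had a group mean of at least 10 normalized counts in at least 1 group (20 Trbv, 7 Trbj and both Trbc), and 2 were listed at 0 in every group.

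The groups were all on a C57BL/6 background. The Id2-/-Id3-/- group held 3 libraries of CD4 single-positive (CD4SP) thymocytes, sorted as CD4+TCRb+CD8- cells from 8-wk-old mice. In these Id2 fl/fl Id3 fl/fl mice IL7R-Cre, which acts from the common lymphoid progenitor onwards, deletes both genes. The Id3-/- label was given to 3 libraries of CD4SP thymocytes, also from 8-wk-old mice. The TFH group (follicular helper T cells) held 3 libraries of CD4+TCRb+CD44highCXCR5+ splenocytes. These came from mice labelled wild type that had received sheep red blood cells as antigen. The lymphoma group held 6 libraries of CD3+TCRb+ cells labelled as Id2 and Id3 double knockout, of which 4 were sorted as CD4+ and 2 as CD8+. They came from lymph node (4), spleen (1) and thymus (1), and the Cre driver and age of the mice are not in their labels. The control group held 5 libraries of CD4SP thymocytes from 8-wk-old mice, labelled wild type, while the study's text names Id3+/- littermates. The V and J segments of the CD4SP groups bear on the study's question of how many founder cells gave rise to the thymocytes that grow out without Id2 and Id3. The table holds 1 mean per group, the authors' average of DESeq-normalized counts, so no spread between libraries could be computed and no difference below was tested. A mean does not show whether a segment was high in every library of a group or in 1 of them.

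A TCR beta chain is assembled in developing thymocytes by joining 1 variable (V), 1 diversity (D) and 1 joining (J) segment, and the joined exon is spliced to a constant (C) gene. The mouse locus carries its V genes 5′ of a pair of D-J-C clusters. A chain that uses a J segment of cluster 1 is spliced to Trbc1, and a chain that uses a J segment of cluster 2 to Trbc2. Since each mature T cell usually expresses 1 functional beta chain, the V and J transcripts of a polyclonal population spread over many segments, while those of a clone fall on 1 V and 1 J segment.

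The locus was read in GRCm38, the assembly also called mm10, with the GENCODE annotation of release M21. The members span chr6:40891229-41558452, or 667 kb from Trbv1 to Trbv31. Trbv1 to Trbv30 lie on the plus strand and end 251 kb before Trbd1. Cluster 1, chr6:41533201-41539881, runs from Trbd1 through Trbj1-1 to Trbj1-7 to Trbc1. Cluster 2, chr6:41542163-41548352, runs from Trbd2 through Trbj2-1 to Trbj2-7 to Trbc2. Trbv31 lies 3′ of Trbc2 on the minus strand and is joined by inversion.

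The sequences of the short segments show what a read has to cover to be assigned to them. The D segments are given whole, with no part in capitals, because both were listed at 0 in every group. Trbd1 has 12 bases, 8 of them G, and Trbd2 has 14 bases, 10 of them G.
Trbd1: gggacagggggc
Trbd2: gggactgggggggc

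The J segments are given next, since the results turn on which of them were used. Each is printed from its coding transcript, which for Trbj1-3 covers 50 of the 54 annotated bases. Capitals mark the bases that encode the Phe-Gly-X-Gly motif found in J regions of antigen receptors. It was found by a script in 11 of the 14 segments and not in Trbj1-6, Trbj1-7 and Trbj2-6, the last of which is annotated as a pseudogene. These are the cluster 1 segments, in chromosomal order.
Trbj1-1: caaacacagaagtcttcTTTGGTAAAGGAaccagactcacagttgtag
Trbj1-2: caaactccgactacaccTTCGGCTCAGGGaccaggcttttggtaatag
Trbj1-3: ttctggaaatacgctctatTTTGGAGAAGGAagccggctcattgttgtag
Trbj1-4: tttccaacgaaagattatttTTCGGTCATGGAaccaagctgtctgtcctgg
Trbj1-5: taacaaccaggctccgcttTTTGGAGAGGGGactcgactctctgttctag
Trbj1-6: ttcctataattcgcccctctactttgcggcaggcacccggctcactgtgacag
Trbj1-7: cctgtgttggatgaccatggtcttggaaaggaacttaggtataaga

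These are the cluster 2 segments, among which Trbj2-1, Trbj2-3 and Trbj2-7 carried most of the J counts in the Id2-/-Id3-/- thymocytes or the lymphomas.
Trbj2-1: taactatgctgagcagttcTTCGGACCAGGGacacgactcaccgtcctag
Trbj2-2: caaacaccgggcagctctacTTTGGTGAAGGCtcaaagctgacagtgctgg
Trbj2-3: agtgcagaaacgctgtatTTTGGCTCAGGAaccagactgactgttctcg
Trbj2-4: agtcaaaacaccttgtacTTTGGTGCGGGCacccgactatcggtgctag
Trbj2-5: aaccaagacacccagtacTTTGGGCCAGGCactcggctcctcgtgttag
Trbj2-6: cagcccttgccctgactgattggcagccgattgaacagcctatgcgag
Trbj2-7: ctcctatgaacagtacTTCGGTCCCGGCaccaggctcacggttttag

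Of the V genes, the 3′ ends of 5 with large shares are given, because this end runs into the third hypervariable loop. Capitals mark the codon of the conserved cysteine that opens this loop, found as the last TGT or TGC after a codon for Tyr or Phe or, failing that, Leu. Trbv13-1, Trbv13-2 and Trbv13-3 are close relatives. Trbv13-2 and Trbv13-3 share 308 of 340 aligned bases (90.6%), Trbv13-1 and Trbv13-2 share 299 of 337 (88.7%), and Trbv13-1 and Trbv13-3 share 290 of 337 (86.1%). In windows of 50 bases, 1 of 291 windows of Trbv13-2 also occurs in another Trbv row of the table.
Trbv1: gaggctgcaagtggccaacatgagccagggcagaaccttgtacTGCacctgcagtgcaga
Trbv13-1: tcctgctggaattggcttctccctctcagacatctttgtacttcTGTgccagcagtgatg
Trbv13-2: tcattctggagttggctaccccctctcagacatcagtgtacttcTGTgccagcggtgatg
Trbv13-3: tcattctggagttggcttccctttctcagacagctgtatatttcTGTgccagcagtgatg
Trbv20: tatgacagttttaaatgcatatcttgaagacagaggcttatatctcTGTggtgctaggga

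The constant genes differ by 23 of 518 coding bases, and only 1 of these lies in the first exon of 375 bases. It is C260A, with the Trbc1 base first and positions counted from 1 at the 5′ end of that exon, and it is in capitals below. Of the 50-base windows of the transcripts, 283 of 688 (41.1%) for Trbc1 and 283 of 643 (44.0%) for Trbc2 occur in both and cannot be assigned to either gene by sequence alone. The split of counts between the constant genes is to that extent uncertain.
Trbc1: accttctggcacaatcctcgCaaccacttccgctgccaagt
Trbc2: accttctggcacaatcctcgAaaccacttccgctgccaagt

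The summed means of all rows lay between 13386015 and 15497262 normalized counts per group. Id2, one of the deleted genes, had a mean of 6.82 in Id2-/-Id3-/- CD4SP thymocytes, 1764 in libraries labelled Id3-/-, 1628 in TFH cells and 30.5 in lymphomas, against 2293 in control CD4SP thymocytes. Id3 had a mean of 879.7 in Id2-/-Id3-/- CD4SP thymocytes, 2650 in libraries labelled Id3-/-, 1777 in TFH cells and 857 in lymphomas, against 1991 in control CD4SP thymocytes. The level of Id3 thus went against the label of the libraries labelled Id3-/-, where it was not lower than in control. Reads from Id3 exons outside the deleted part would not check the label, and which exons the reads came from was not analysed here.

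The summed TCR beta transcripts were lower than in control in the other 4 groups. The 40 rows summed to 26014 normalized counts in Id2-/-Id3-/- CD4SP thymocytes, 26628 in libraries labelled Id3-/-, 29249 in TFH cells and 25820 in lymphomas, against 31662 in control CD4SP thymocytes. This order depended on the scale, since over the sum of Cd3d, Cd3e, Cd3g and Cd247 the 40 rows came to 0.76 in Id2-/-Id3-/- CD4SP thymocytes, 0.90 in libraries labelled Id3-/-, 1.06 in TFH cells and 1.09 in lymphomas, against 0.91 in control. Constant genes made up most of these sums, with 20811 counts in Id2-/-Id3-/- CD4SP thymocytes and 21343 in lymphomas, against 25809 in control. The Trbv sum was 24.7% of the Trbc sum in Id2-/-Id3-/- CD4SP thymocytes, 21.7% in TFH cells and 20.6% in lymphomas, against 22.3% in control, and in libraries labelled Id3-/- it lay between the values of lymphomas and TFH cells. In these bulk libraries, fewer cells that express a segment and less RNA per cell cannot be told apart. What follows is therefore mainly the share of each segment within its class.

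The J rows were shallow. The 14 Trbj rows summed to a mean of 70.1 in Id2-/-Id3-/- CD4SP thymocytes, 92.5 in libraries labelled Id3-/-, 105.9 in TFH cells and 71.5 in lymphomas, against 103.0 in control. Taken over all libraries of a group, that is 210 normalized counts in Id2-/-Id3-/- CD4SP thymocytes, 277 in libraries labelled Id3-/-, 318 in TFH cells and 429 in lymphomas, against 515 in control. The Trbj sum was between 0.335% and 0.442% of the Trbc sum in the 5 groups. A J segment of 46 to 54 bases is shorter than the V genes, at 289 to 566 bases, and the C genes, at 692 and 749 bases. Since the depth of the libraries is unknown, no counting interval was set on the J shares.

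In Id2-/-Id3-/- CD4SP thymocytes, V transcripts were concentrated in the Trbv13 family. Trbv13-3 had a mean of 1329 in Id2-/-Id3-/- CD4SP thymocytes, 263 in libraries labelled Id3-/-, 280 in TFH cells and 485 in lymphomas, against 285 in control CD4SP thymocytes. Its share of the Trbv counts was 25.9% in Id2-/-Id3-/- CD4SP thymocytes and 4.95% in control, a ratio of shares of 5.23. The log2 ratio of means, taken here and below after adding 1 normalized count to each, was 2.22. Trbv13-2 had a mean of 1309 in Id2-/-Id3-/- CD4SP thymocytes and 928 in control, with shares of 25.5% and 16.1%. Trbv13-1 had a mean of 487 in Id2-/-Id3-/- CD4SP thymocytes and 441 in control, with shares of 9.49% and 7.67%. Together the 3 genes held 60.9% of the Trbv counts in Id2-/-Id3-/- CD4SP thymocytes, 28.6% in libraries labelled Id3-/-, 27.0% in TFH cells and 16.7% in lymphomas, against 28.8% in control.

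Per base of exon, the order of the leading V genes in Id2-/-Id3-/- CD4SP thymocytes was the same as by counts. Trbv13-3 held 27.7% of the length-corrected Trbv signal, Trbv13-2 27.3%, Trbv13-1 9.45%, Trbv5 5.39% and Trbv16 4.28%. By counts Trbv5 held 5.44% in Id2-/-Id3-/- CD4SP thymocytes and 6.29% in control, and its mean was 279 in Id2-/-Id3-/- CD4SP thymocytes and 362 in control. Trbv16 held 4.68% of counts in Id2-/-Id3-/- CD4SP thymocytes and 5.93% in control, with means of 240.0 and 341. Trbv5 and Trbv16 were thus among the 5 leading V genes of the Id2-/-Id3-/- thymocytes with a mean below that of control.

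**Figure D1:**
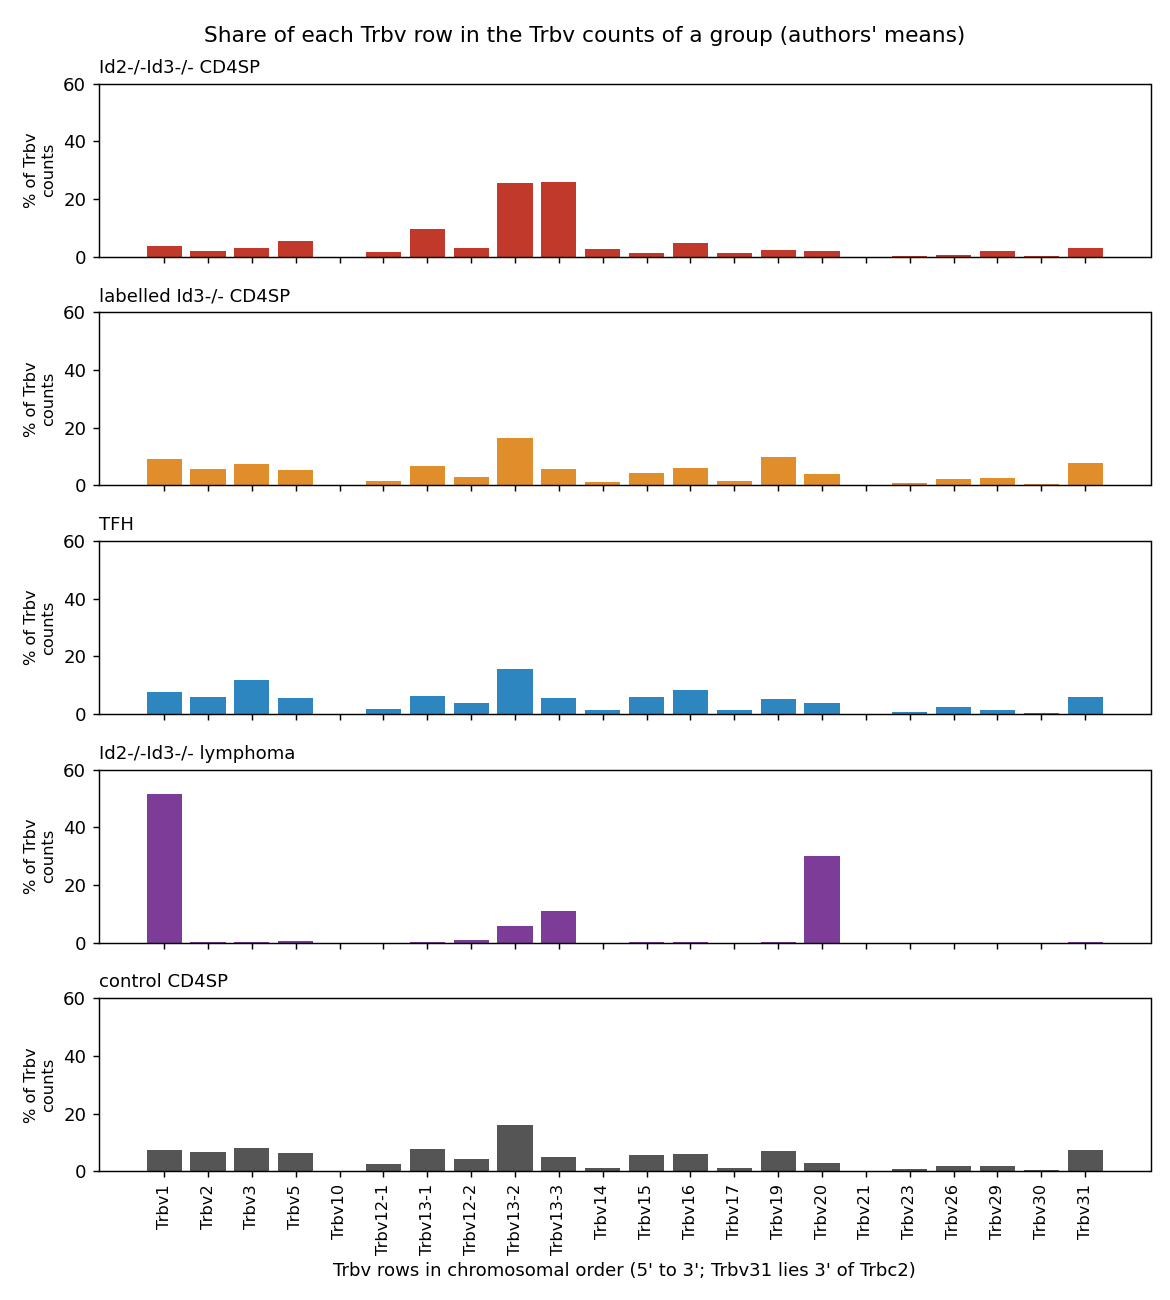
Share of each of the 22 Trbv rows in the Trbv counts of its group (y axis, percent) in chromosomal order (x axis), with 1 panel per group; bars are from the authors' group means and carry no error. Trbv13-2 and Trbv13-3 stand out at 25.5% and 25.9% in Id2-/-Id3-/- CD4SP thymocytes, and Trbv1 and Trbv20 at 51.4% and 30.1% in lymphomas, while the highest bar in control CD4SP thymocytes is Trbv13-2 at 16.1%.

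The V genes with higher means in Id2-/-Id3-/- CD4SP thymocytes were neighbours. Of the 22 Trbv rows, 4 had a higher mean than in control, namely Trbv13-1, Trbv13-2, Trbv13-3 and Trbv14, and all 4 lie within the 6 rows from Trbv12-1 to Trbv14. Among the other 16 rows, 15 had a lower mean and 1, the pseudogene Trbv10, was at 0 in both groups. The 6 rows held 68.3% of the Trbv counts in Id2-/-Id3-/- CD4SP thymocytes, 34.0% in libraries labelled Id3-/-, 34.2% in TFH cells and 17.6% in lymphomas, against 36.4% in control. Members of the stretch were not alike, since Trbv12-1 had a mean of 83.9 in Id2-/-Id3-/- CD4SP thymocytes and 135 in control, and Trbv12-2 a mean of 161 and 237. This stretch was marked out after the values were seen. Libraries labelled Id3-/- also had 4 of the 22 Trbv rows with a higher mean than in control. They were Trbv19, Trbv20, Trbv29 and Trbv30, all within the 7 rows from Trbv19 to Trbv30. Their log2 ratios were at most 0.13. That 4 higher rows lie near each other is therefore not particular to the Id2-/-Id3-/- thymocytes. Trbv14, which has 1 member in its family, had a mean of 134 in Id2-/-Id3-/- CD4SP thymocytes and 69.1 in control, a log2 ratio of 0.95.

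Away from Trbv12-1 to Trbv14, on both sides, V means were lower in Id2-/-Id3-/- CD4SP thymocytes than in control. Trbv1, the V gene farthest from the D-J-C clusters, had a mean of 184 in Id2-/-Id3-/- CD4SP thymocytes and 422 in control. Trbv2 had a mean of 107 in Id2-/-Id3-/- CD4SP thymocytes and 390 in control, and Trbv3 a mean of 160 and 473. Trbv15, the next row 3′ of Trbv14, had the smallest log2 ratio, at -2.32, with a mean of 63.9 in Id2-/-Id3-/- CD4SP thymocytes and 324 in control. Trbv19 had a mean of 125 in Id2-/-Id3-/- CD4SP thymocytes and 407 in control, and Trbv23 a mean of 9.33 and 38.1. Trbv30, the V gene nearest to the clusters on their 5′ side, had a mean of 3.34 in Id2-/-Id3-/- CD4SP thymocytes and 20.4 in control, a log2 ratio of -2.30. Trbv31, the inverted gene on the 3′ side, had a mean of 162 in Id2-/-Id3-/- CD4SP thymocytes and 417 in control.

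Counts of segments past 2-fold were drawn from these same means. Of Trbv13-1, Trbv13-2, Trbv13-3 and Trbv14, only Trbv13-3 was past 2-fold. For Id2-/-Id3-/- CD4SP thymocytes over control, 27 of the 40 rows had a mean of at least 10 in the higher group. Of these, 2 were past 2-fold higher (Trbv13-3 and Trbj2-3), where 14.1% of all 14470 rows kept by the same minimum were. Past 2-fold lower were 11 of the 27 rows, where 10.1% of all kept rows were. These 11 were Trbv1, Trbv2, Trbv3, Trbv15, Trbv19, Trbv23, Trbv26, Trbv30, Trbv31, Trbj1-3 and Trbj1-6. The median log2 ratio was -0.65 over the 27 rows and 0.02 over all kept rows.

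The libraries labelled Id3-/- and the TFH cells stayed close to control in V use. For libraries labelled Id3-/- over control, 26 rows were kept, 0 were past 2-fold higher, where 5.35% of all kept rows were, and 1 was past 2-fold lower, where 3.46% of all kept rows were. Both counts were near these shares and do not set the segments apart from other rows. The row past 2-fold lower was Trbv12-1, with a mean of 61.7 in libraries labelled Id3-/- and 135 in control, a log2 ratio of -1.12. Its relative Trbv12-2 had a mean of 134 in libraries labelled Id3-/- and 237 in control, and Trbv15 a mean of 203 and 324. The largest log2 ratios of a Trbv row in the libraries labelled Id3-/- were 0.13 for Trbv19, 0.10 for Trbv30 and 0.10 for Trbv29. Trbv19 held 9.68% of their Trbv counts and 7.07% in control, second to Trbv13-2 at 16.4% and 16.1%. Per base of exon Trbv19 held 6.77% and took the fifth place in the libraries labelled Id3-/-. Trbv1 held 9.05% of counts in libraries labelled Id3-/- and 7.35% in control, Trbv31 7.76% and 7.25%, and Trbv3 7.24% and 8.22%.

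For TFH cells over control, 27 rows were kept and 0 were past 2-fold in either direction, where 12.1% of all kept rows were higher and 9.32% lower. No test was run on these means, and at 1.5-fold 2 rows were lower. Trbv3 had the largest log2 ratio of the V genes, 0.36, with a mean of 609 in TFH cells and 473 in control, and held 11.7% and 8.22% of the Trbv counts. Trbv16 had a mean of 431 in TFH cells and 341 in control, and Trbv20 a mean of 202 and 164. The smallest log2 ratios were -0.68 for Trbv29, with means of 70.1 in TFH cells and 113 in control, -0.64 for Trbv12-1 and -0.58 for Trbv19. Trbv13-2 again held the largest share, 15.4% in TFH cells and 16.1% in control, and also came first per base of exon. All 7 B cell markers examined were past 2-fold higher in TFH cells, Ighm, the heavy chain gene of IgM, with a mean of 10902 in TFH cells and 1183 in control, and the part of such cells in the TFH values was not tested.

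In the lymphomas, 4 V genes held 98.1% of the Trbv counts. Trbv1 had a mean of 2264 in lymphomas, against 184 in Id2-/-Id3-/- CD4SP thymocytes and 422 in control CD4SP thymocytes, and held 51.4% of the lymphoma Trbv counts. Trbv20 had a mean of 1324 in lymphomas, against 104 in Id2-/-Id3-/- CD4SP thymocytes and 164 in control, and held 30.1%. Trbv13-3 held 11.0% and Trbv13-2 5.59%, with means of 485 and 246 in lymphomas. A row with no symbol in the annotation used, which the rule leaves out, had a mean of 295 in lymphomas, and with it counted in, a setting chosen after the values were seen, the 4 genes held 91.9%. Its Ensembl number lies between those of Trbv3 and Trbv5, so it may be a V gene, but this was not settled. Per base of exon the same 4 genes led, with 46.2% for Trbv1, 33.6% for Trbv20, 12.1% for Trbv13-3 and 6.16% for Trbv13-2.

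The other 18 Trbv rows together held 1.95% of the Trbv counts in lymphomas, 43.0% in Id2-/-Id3-/- CD4SP thymocytes and 68.7% in control. The row without a symbol is not among them. The highest of the 18 in lymphomas was Trbv12-2, with a mean of 37.0 in lymphomas, 161 in Id2-/-Id3-/- CD4SP thymocytes and 237 in control. Trbv5 followed at 22.3 in lymphomas, and the means of the remaining 16 were all under 5. Trbv23 was listed at 0 in lymphomas. Trbv3 had a mean of 2.53 in lymphomas and 473 in control, a log2 ratio of -7.07, the smallest of all V genes in this comparison. Trbv2 had a mean of 2.13 in lymphomas and 390 in control, and Trbv31 a mean of 2.35 and 417.

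For lymphomas over control, 27 rows were kept. Of these, 3 were past 2-fold higher (Trbv1, Trbv20 and Trbj2-1), where 18.7% of all kept rows were, and 21 were past 2-fold lower, where 15.9% of all kept rows were. The median log2 ratio was -4.11 over the 27 rows and 0.06 over all kept rows. Among the 20 kept Trbv rows 17 were lower, the exceptions being Trbv1, Trbv20 and Trbv13-3, whose log2 ratio was 0.77.

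The lymphomas also differed from the Id2-/-Id3-/- CD4SP thymocytes, which carry the same deletions by label. For lymphomas over Id2-/-Id3-/- CD4SP thymocytes, 23 rows were kept, 4 were past 2-fold higher (Trbv1, Trbv20, Trbj2-1 and Trbj2-7), where 11.2% of all kept rows were, and 18 were past 2-fold lower, where 13.3% of all kept rows were. Trbv20 and Trbv1 had log2 ratios of 3.66 and 3.62. The next V gene, Trbv13-3, had a log2 ratio of -1.45, with a mean of 485 in lymphomas and 1329 in Id2-/-Id3-/- CD4SP thymocytes. Trbv13-1 had the smallest, -6.47, with a mean of 4.52 in lymphomas and 487 in Id2-/-Id3-/- CD4SP thymocytes. Trbv14 followed at -6.41 and Trbv29 at -5.79. The 4 comparisons with control share the same control mean, so their ratios are not independent of each other.

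**Figure D2:**
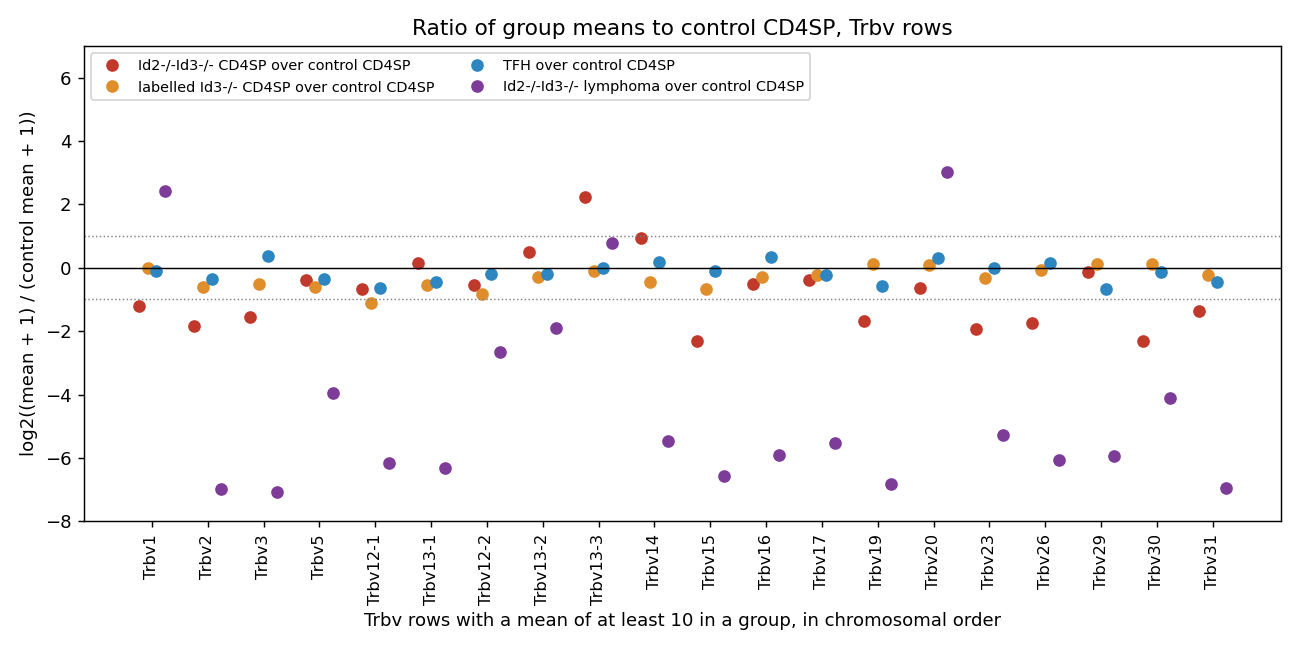
Log2 ratio of group mean to control CD4SP mean, each with 1 normalized count added (y axis), for the 20 Trbv rows with a mean of at least 10 in a group, in chromosomal order (x axis); colours are the 4 groups and dotted lines mark 2-fold. The Id2-/-Id3-/- CD4SP points are above 0 only at Trbv13-1, Trbv13-2, Trbv13-3 and Trbv14, and lymphoma points are above 0 only at Trbv1 (2.42), Trbv13-3 (0.77) and Trbv20 (3.01).

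V use was less even in Id2-/-Id3-/- CD4SP thymocytes than in control, and least even in lymphomas. Evenness was measured by the effective number of segments, the exponential of the Shannon entropy, which is the number of equally used segments that would give the same entropy. It was 10.1 for Trbv in Id2-/-Id3-/- CD4SP thymocytes, 15.2 in libraries labelled Id3-/-, 15.3 in TFH cells and 3.39 in lymphomas, against 15.5 in control. A setting chosen after the values were seen counted in the row without a symbol. The effective Trbv number was then 10.6, 16.1, 16.2 and 3.96 in these 4 groups, against 16.4 in control. For Trbj the effective number was 7.58 in Id2-/-Id3-/- CD4SP thymocytes, 12.0 in libraries labelled Id3-/-, 12.2 in TFH cells and 2.59 in lymphomas, against 11.7 in control. At least 1% of the Trbv counts was held by 17 genes in Id2-/-Id3-/- CD4SP thymocytes, 18 in libraries labelled Id3-/-, 18 in TFH cells and 4 in lymphomas, against 18 in control. These values describe a mean over libraries, so a group of several uneven libraries that each lead with another gene would look more even than each of them.

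J transcripts of Id2-/-Id3-/- CD4SP thymocytes were concentrated in cluster 2. Trbj2-3 had a mean of 23.1 in Id2-/-Id3-/- CD4SP thymocytes, 7.91 in libraries labelled Id3-/-, 11.7 in TFH cells and 0.23 in lymphomas, against 9.41 in control. It held 32.9% of the Trbj counts in Id2-/-Id3-/- CD4SP thymocytes and 9.13% in control. Trbj2-1 had a mean of 17.0 in Id2-/-Id3-/- CD4SP thymocytes, 10.3 in libraries labelled Id3-/-, 9.30 in TFH cells and 52.9 in lymphomas, against 9.58 in control. Its share was 24.3% in Id2-/-Id3-/- CD4SP thymocytes, 74.0% in lymphomas and 9.30% in control.

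The other cluster 2 segments had lower means in Id2-/-Id3-/- CD4SP thymocytes than in control. Trbj2-4 had a mean of 5.92 in Id2-/-Id3-/- CD4SP thymocytes and 11.5 in control, and Trbj2-5 a mean of 3.49 and 9.58. Trbj2-2 had a mean of 3.28 in Id2-/-Id3-/- CD4SP thymocytes and 7.67 in control, and Trbj2-7 a mean of 3.49 and 8.56. The pseudogene Trbj2-6 was near 0 throughout, at 0.29 in Id2-/-Id3-/- CD4SP thymocytes and 0.68 in control.

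All 7 cluster 1 segments had lower means in Id2-/-Id3-/- CD4SP thymocytes than in control. Trbj1-3 had a mean of 2.72 in Id2-/-Id3-/- CD4SP thymocytes, 11.8 in libraries labelled Id3-/-, 10.2 in TFH cells and 2.26 in lymphomas, against 13.3 in control. Trbj1-6 had a mean of 3.41 in Id2-/-Id3-/- CD4SP thymocytes, 12.0 in libraries labelled Id3-/-, 9.57 in TFH cells and 1.66 in lymphomas, against 11.4 in control. Trbj1-4 had a mean of 3.08 in Id2-/-Id3-/- CD4SP thymocytes and 9.27 in control. Trbj1-2 had a mean of 2.22 in Id2-/-Id3-/- CD4SP thymocytes and 4.90 in control, Trbj1-1 a mean of 1.64 and 2.85, and Trbj1-5 a mean of 0.49 and 3.73. Trbj1-7, which lacks the motif, was listed at 0 in Id2-/-Id3-/- CD4SP thymocytes and at 0.63 in control.

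In lymphomas, Trbj2-1 and Trbj2-7 held 88.6% of the Trbj counts. Trbj2-7 had a mean of 10.5 in lymphomas, 3.49 in Id2-/-Id3-/- CD4SP thymocytes and 8.56 in control, and held 14.7% of the lymphoma Trbj counts. Every other J segment had a mean under 2.5 in lymphomas. Trbj1-3, at 2.26, and Trbj1-2, at 2.07, were the highest of these, and Trbj1-1, Trbj1-7 and Trbj2-6 were listed at 0. The leading J segments of the Id2-/-Id3-/- thymocytes were thus not all those of the lymphomas, since Trbj2-3 held 0.32% of the Trbj counts in lymphomas and 32.9% in Id2-/-Id3-/- CD4SP thymocytes.

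The libraries labelled Id3-/- and the TFH cells used J segments much as control did. The largest J share was 13.0% in libraries labelled Id3-/- (Trbj1-6) and 11.1% in TFH cells (Trbj2-3), against 12.9% in control (Trbj1-3). None of the kept J rows was past 2-fold in either group, with 4 kept in libraries labelled Id3-/- and 5 in TFH cells. Over all kept rows, 5.35% were higher and 3.46% lower in libraries labelled Id3-/-, and 12.1% and 9.32% in TFH cells. With so few J rows kept, their counts say little about J use.

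**Figure D3:**
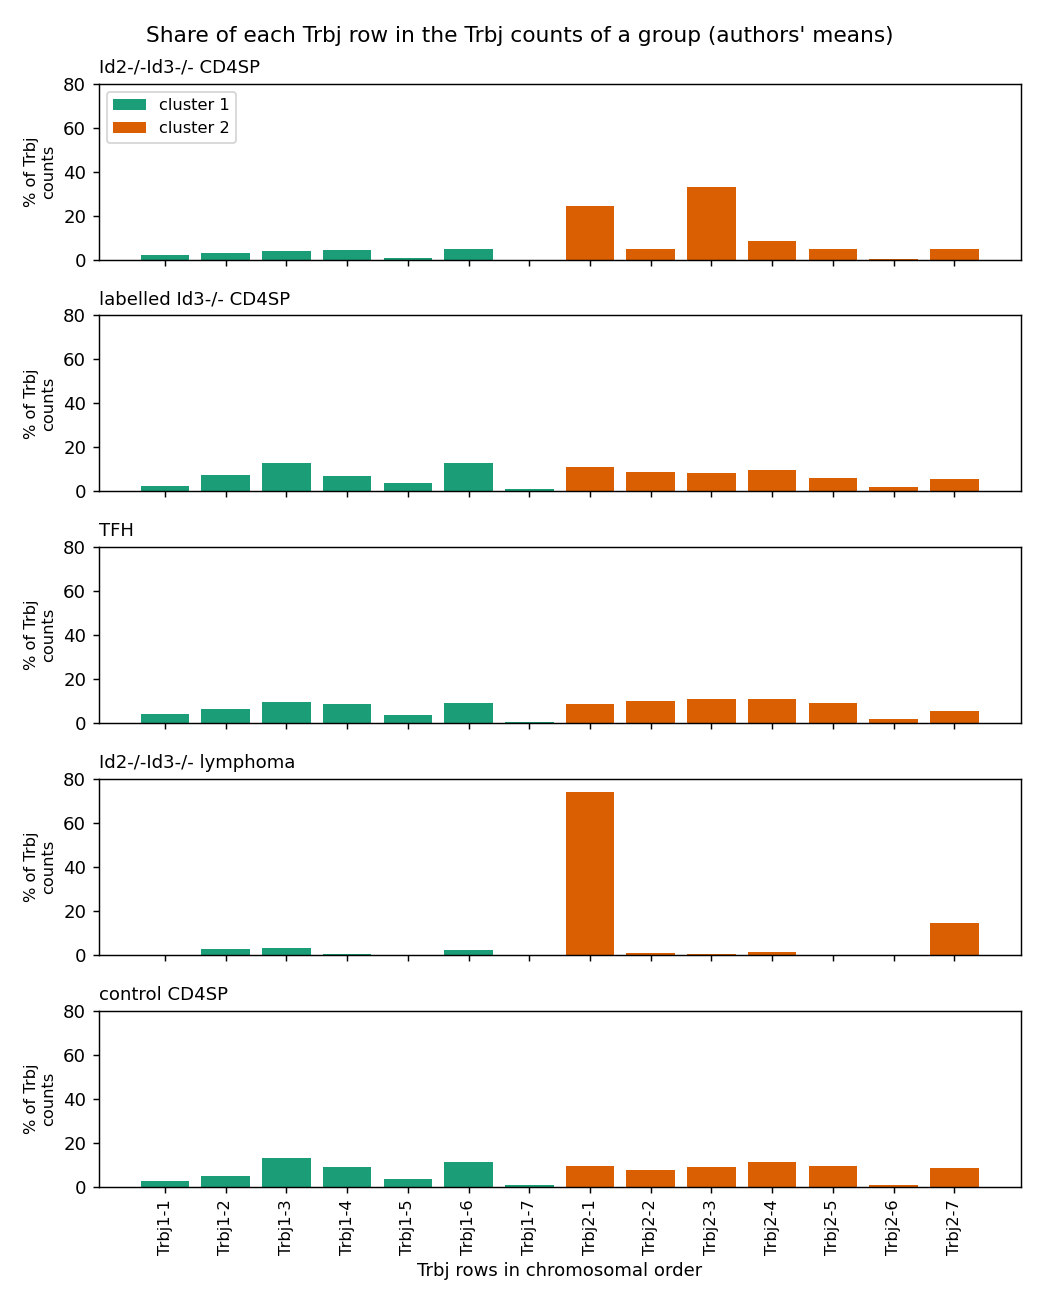
Share of each of the 14 Trbj rows in the Trbj counts of its group (y axis, percent) in chromosomal order (x axis), coloured by D-J-C cluster, with 1 panel per group; bars are from the authors' group means and carry no error. Trbj2-3 and Trbj2-1 lead in Id2-/-Id3-/- CD4SP thymocytes at 32.9% and 24.3%, Trbj2-1 leads in lymphomas at 74.0%, and no segment passes 13.0% in the other 3 groups.

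Set against each other, cluster 2 held more of the J counts than cluster 1 in all 5 groups. Its share of Trbj counts was 80.6% in Id2-/-Id3-/- CD4SP thymocytes, 52.3% in libraries labelled Id3-/-, 57.7% in TFH cells and 91.2% in lymphomas, against 55.3% in control. The cluster 1 sum was 13.6 in Id2-/-Id3-/- CD4SP thymocytes, 44.1 in libraries labelled Id3-/-, 44.8 in TFH cells and 6.32 in lymphomas, against 46.1 in control. The cluster 2 sum was 56.5 in Id2-/-Id3-/- CD4SP thymocytes, 48.4 in libraries labelled Id3-/-, 61.1 in TFH cells and 65.2 in lymphomas, against 56.9 in control. The high share of cluster 2 in Id2-/-Id3-/- CD4SP thymocytes thus went with a smaller cluster 1 sum at a similar cluster 2 sum. With Trbj2-1 and Trbj2-3 left out, a setting chosen after the values were seen, the share of cluster 2 was 54.8% in Id2-/-Id3-/- CD4SP thymocytes, 40.6% in libraries labelled Id3-/-, 47.2% in TFH cells and 65.6% in lymphomas, against 45.2% in control.

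The constant genes followed the J clusters in lymphomas, while in Id2-/-Id3-/- CD4SP thymocytes their split stayed close to that of control. Trbc1 had a mean of 5422 in Id2-/-Id3-/- CD4SP thymocytes, 7121 in libraries labelled Id3-/-, 7046 in TFH cells and 1502 in lymphomas, against 7492 in control. Trbc2 had a mean of 15389 in Id2-/-Id3-/- CD4SP thymocytes, 14807 in libraries labelled Id3-/-, 16904 in TFH cells and 19841 in lymphomas, against 18317 in control. The share of Trbc2 was 73.9% in Id2-/-Id3-/- CD4SP thymocytes, 67.5% in libraries labelled Id3-/-, 70.6% in TFH cells and 93.0% in lymphomas, against 71.0% in control. The log2 ratio of Trbc1 was -2.32 in lymphomas over control and -0.47 in Id2-/-Id3-/- CD4SP thymocytes over control, while that of Trbc2 was 0.12 and -0.25. In lymphomas the share of cluster 2 was thus 91.2% among J and 93.0% among C transcripts. In Id2-/-Id3-/- CD4SP thymocytes it was 80.6% among J and 73.9% among C transcripts, and in control 55.3% and 71.0%.

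**Figure D4:**
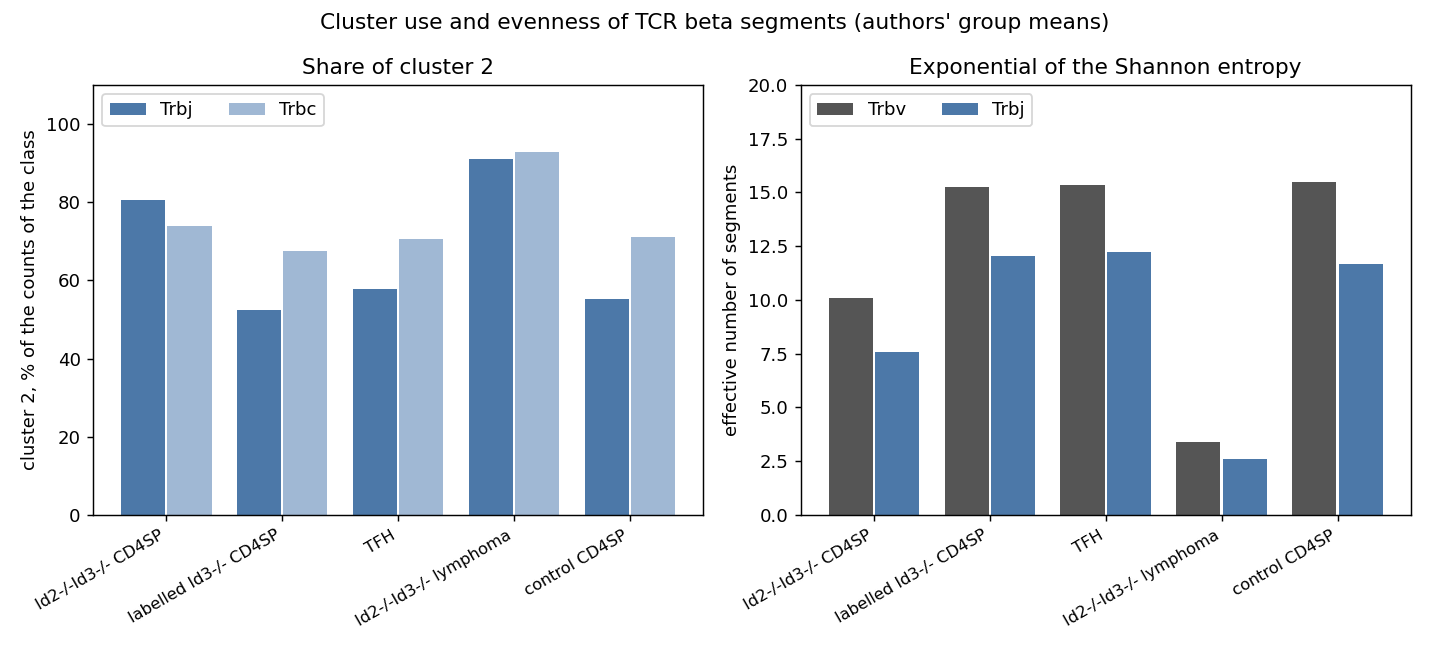
Left, share of cluster 2 in the Trbj counts and in the Trbc counts of each group (y axis, percent); right, effective number of Trbv and of Trbj segments (y axis), each from the authors' group means with no error. The share of cluster 2 is highest in lymphomas, at 91.2% for Trbj and 93.0% for Trbc, and the effective numbers are lowest there, at 3.39 for Trbv and 2.59 for Trbj.

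Genes that work with the segments were examined as lists. Of 7 genes of the TCR complex, which carries the beta chain to the surface and signals from it, 6 passed the minimum in each comparison. Past 2-fold lower were Trat1 in Id2-/-Id3-/- CD4SP thymocytes, with a mean of 261 there and 679.6 in control, Trat1 in TFH cells, with a mean of 314 there, and Cd247, the zeta chain, in lymphomas, with a mean of 4062 there and 8979 in control. None of the 6 was past 2-fold higher in any group, where between 5.35% and 18.7% of all kept rows were higher than in control. Past 2-fold lower were 10.1% of all kept rows in Id2-/-Id3-/- CD4SP thymocytes, 3.46% in libraries labelled Id3-/-, 9.32% in TFH cells and 15.9% in lymphomas. With 6 genes, these counts do not set the list apart from other rows. The mean of Trac, the constant gene of the alpha chain, was 7477 in Id2-/-Id3-/- CD4SP thymocytes, 8104 in libraries labelled Id3-/-, 10216 in TFH cells and 5853 in lymphomas, against 7953 in control.

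Of 14 genes of V(D)J recombination and end joining, 13 were kept in each comparison. Rag1, which with Rag2 cuts at the segments, had a mean of 13.4 in Id2-/-Id3-/- CD4SP thymocytes, 8.88 in libraries labelled Id3-/-, 1.23 in TFH cells and 0.42 in lymphomas, against 14.2 in control. Dntt, which adds untemplated bases at the joins, had a mean of 220 in Id2-/-Id3-/- CD4SP thymocytes, 307 in libraries labelled Id3-/-, 10.1 in TFH cells and 482 in lymphomas, against 326 in control. Past 2-fold higher was 1 of the 13 genes in Id2-/-Id3-/- CD4SP thymocytes, where 14.1% of all kept rows were. It was the DNA ligase gene Lig4, with a mean of 552 there and 248 in control. In lymphomas 3 of the 13 were past 2-fold higher, where 18.7% of all kept rows were. They were Lig4 and the genes for the Ku proteins, Xrcc5 and Xrcc6. Rag1 was past 2-fold lower. In TFH cells Dclre1c, the gene for the hairpin-opening nuclease Artemis, was past 2-fold higher and Rag1 and Dntt past 2-fold lower. In libraries labelled Id3-/- 0 of the 13 were past 2-fold. Over all kept rows, 12.1% were higher and 9.32% lower in TFH cells, and 5.35% and 3.46% in libraries labelled Id3-/-. Past 2-fold lower in lymphomas were 15.9% of all kept rows.

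Of 10 genes for factors that bind the TCR beta enhancer or V promoters, all were kept in each comparison. Past 2-fold lower were 2 of the 10 in Id2-/-Id3-/- CD4SP thymocytes, where 10.1% of all kept rows were, and the same 2 in lymphomas, where 15.9% of all kept rows were. Runx3, a Runt factor of the CD8 lineage, had a mean of 118 in Id2-/-Id3-/- CD4SP thymocytes and 399 in lymphomas, against 1154 in control. Tcf4, an E protein gene, had a mean of 42.7 in Id2-/-Id3-/- CD4SP thymocytes and 27.7 in lymphomas, against 252 in control. It was also past 2-fold lower in libraries labelled Id3-/-, at 122, and in TFH cells 0 of the 10 were past 2-fold. Over all kept rows, 3.46% were past 2-fold lower in libraries labelled Id3-/- and 9.32% in TFH cells. None of the 10 was past 2-fold higher against control, where between 5.35% and 18.7% of all kept rows were. Ets1, which binds the enhancer, had a mean of 11483 in Id2-/-Id3-/- CD4SP thymocytes and 13447 in lymphomas, against 22568 in control.

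Serine protease genes, among them those of pancreatic trypsins, lie within the same stretch of chromosome. Only the 7 rows whose symbols begin with Prss or Try were listed, and rows of the stretch with other symbols are not counted here. Of these 7 rows, 2 were kept in Id2-/-Id3-/- CD4SP thymocytes over control, with Try10 past 2-fold higher and Prss2 past 2-fold lower. Over all kept rows, 14.1% were higher and 10.1% lower. Prss2 lies at chr6:41521787-41525079, the nearest of them to Trbd1, and was past 2-fold lower in TFH cells and lymphomas too, with a mean of 8.11 in Id2-/-Id3-/- CD4SP thymocytes, 31.0 in libraries labelled Id3-/-, 6.92 in TFH cells and 6.30 in lymphomas, against 29.2 in control. The other 5 of the 7 had means under 10 in every group.

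Markers of other T cells were higher in several groups, among them the libraries labelled Id3-/-, whose V and J shares were close to control. The gene for PLZF, Zbtb16, a factor of invariant NKT cells, which are known for using Trbv13 genes, Trbv29 and Trbv1, had a mean of 3912 in Id2-/-Id3-/- CD4SP thymocytes, 733 in libraries labelled Id3-/-, 48.2 in TFH cells and 2211 in lymphomas, against 116 in control. Trav11, the V alpha gene of these cells, had a mean of 99.1 in Id2-/-Id3-/- CD4SP thymocytes, 102 in libraries labelled Id3-/-, 47.7 in TFH cells and 152 in lymphomas, against 31.8 in control. Of the 4 markers of these cells, 3 were past 2-fold higher in Id2-/-Id3-/- CD4SP thymocytes, 2 in libraries labelled Id3-/-, 2 in TFH cells and 3 in lymphomas, and Klrb1c in libraries labelled Id3-/- and Zbtb16 in TFH cells were past 2-fold lower. Over all kept rows, 14.1% were past 2-fold higher in Id2-/-Id3-/- CD4SP thymocytes, 5.35% in libraries labelled Id3-/-, 12.1% in TFH cells and 18.7% in lymphomas. Past 2-fold lower were 3.46% in libraries labelled Id3-/- and 9.32% in TFH cells. The 4 markers of invariant NKT cells summed to 7766 in Id2-/-Id3-/- CD4SP thymocytes, 1781 in libraries labelled Id3-/-, 5188 in TFH cells and 6428 in lymphomas, against 752 in control. Slamf6, which other activated T cells also express, gave most of the sum in TFH cells, at 4862. Of the gamma delta T cell markers 4 of 5 were found, and they summed to 3575 in Id2-/-Id3-/- CD4SP thymocytes, 640.4 in libraries labelled Id3-/-, 72.1 in TFH cells and 2107 in lymphomas, against 261 in control. Past 2-fold higher were 4 in Id2-/-Id3-/- CD4SP thymocytes, 3 in libraries labelled Id3-/- and 2 in lymphomas, and all 4 were past 2-fold lower in TFH cells. Most of the lymphoma sum was Sox13, at 1616, against 127 in control. Of the TCR gamma constant genes, Tcrg-C1 had a mean of 519 in Id2-/-Id3-/- CD4SP thymocytes and 57.5 in lymphomas, against 48.2 in control. Tcrg-C4 had a mean of 1717 in Id2-/-Id3-/- CD4SP thymocytes and 67.5 in lymphomas, against 39.0 in control. Tcrg-C2 was past 2-fold higher in both groups, with a mean of 561 in Id2-/-Id3-/- CD4SP thymocytes and 365 in lymphomas, against 46.3 in control. The part of these cells in the TCR beta shares was not tested.

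The remaining marker lists check the labels. Their counts stand beside these shares of all kept rows. Past 2-fold higher than control were 14.1% in Id2-/-Id3-/- CD4SP thymocytes, 5.35% in libraries labelled Id3-/-, 12.1% in TFH cells and 18.7% in lymphomas. Past 2-fold lower were 10.1%, 3.46%, 9.32% and 15.9% in these groups. Cd4 had a mean of 6565 in Id2-/-Id3-/- CD4SP thymocytes, 12552 in libraries labelled Id3-/-, 20145 in TFH cells and 4110 in lymphomas, against 15039 in control, and Cd8a a mean of 19.2, 66.6, 26.1 and 1388 in these 4 groups, against 128 in control. Of 5 CD4 T cell markers, past 2-fold lower were 2 in Id2-/-Id3-/- CD4SP thymocytes (Cd4 and Zbtb7b), 1 in TFH cells (Zbtb7b) and 3 in lymphomas (Cd4, Cd5 and Zbtb7b). Of 6 TFH markers, 4 were past 2-fold higher in Id2-/-Id3-/- CD4SP thymocytes, 2 in libraries labelled Id3-/-, 5 in TFH cells and 4 in lymphomas. Of 7 markers of CD4+CD8+ thymocytes, 1 was past 2-fold higher in Id2-/-Id3-/- CD4SP thymocytes (Arpp21) and 2 in lymphomas (Cd8a and Arpp21), and among those past 2-fold lower were Cd8a in Id2-/-Id3-/- CD4SP thymocytes, 4 genes in TFH cells and Rag1 in lymphomas. Of 5 CD8 T cell markers, 1 was past 2-fold higher in Id2-/-Id3-/- CD4SP thymocytes (Eomes) and 1 in lymphomas (Cd8a), and 2 in libraries labelled Id3-/- and in TFH cells (Eomes and Gzmk). Past 2-fold lower were 3 of them in Id2-/-Id3-/- CD4SP thymocytes (Cd8a, Cd8b1 and Runx3), 2 in TFH cells (Cd8a and Cd8b1) and 1 in lymphomas (Runx3). Of 5 NK cell markers, Ncr1 had a mean of at most 2.07 in every group, and 1 was past 2-fold higher in Id2-/-Id3-/- CD4SP thymocytes (Eomes), 1 in libraries labelled Id3-/- (Eomes), 2 in TFH cells (Klrb1c and Eomes) and 1 in lymphomas (Klrd1). Past 2-fold lower were Klrk1 in Id2-/-Id3-/- CD4SP thymocytes and Klrb1c, Klrd1 and Klrk1 in libraries labelled Id3-/-. Of 7 B cell markers, Ighm was past 2-fold higher in all 4 groups. It was the only 1 in Id2-/-Id3-/- CD4SP thymocytes and in libraries labelled Id3-/-, while in TFH cells all 7 were. In lymphomas Cd79b was past 2-fold higher too, with a mean of 455 there and 22.0 in control. The 5 myeloid markers summed to 199 in Id2-/-Id3-/- CD4SP thymocytes, 142 in libraries labelled Id3-/-, 65.2 in TFH cells and 430.4 in lymphomas, against 82.8 in control. Itgam gave most of the sum in Id2-/-Id3-/- CD4SP thymocytes, at 181, and was the only 1 past 2-fold higher there. Lyz2 and Csf1r were past 2-fold higher in the other 3 groups. Itgam was past 2-fold higher in lymphomas too and past 2-fold lower in TFH cells. Of 5 thymic epithelium markers, Epcam had a mean of 593 in Id2-/-Id3-/- CD4SP thymocytes and 3797 in lymphomas, against 70.7 in control, while Foxn1 had a mean of at most 3.55 in every group. Psmb11 was past 2-fold lower in libraries labelled Id3-/-, TFH cells and lymphomas.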

How the data were processed

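RNA from 20 sorted samples in 5 groups was sequenced with a strand-specific protocol on an Illumina HiSeq instrument. Per the study's methods and the submitters' processing notes, the authors aligned reads to mm10 with OSA in Array Studio, estimated counts with RSEM and normalized them with DESeq. Their versions are not given in sources used here. The deposited signal values are the authors' group means of these normalized counts, 1 per gene and group, with 0 columns of values per library. A stated filter removed genes whose abundance was below 10 in all samples, yet 23643 of the 39179 deposited rows had all 5 means under 10. A further 12 columns hold the authors' fold changes, p-values and false discovery rates, and were not used. Depth per library is unknown, so no precision could be set on a mean, and no test, SD or interval was computed.

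Identifiers were matched to symbols in GENCODE M21 (37607 of 39179 rows), and coordinates, exonic lengths and sequences were read from that release with Python 3.11.15, numpy 2.4.6, matplotlib 3.10.9 and Biopython 1.88. Sequences are thus those of GENCODE on GRCm38. Shares were taken over the rows of a class, also after division by exonic length. Log2 ratios had 1 normalized count added to both means. A row was kept where the higher mean was at least 10, and called past 2-fold. The functions were tested on simulated data.

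All Trbd, Trbj and Trbc rows were named, with the 5 Trbv rows of largest share in each group and the 3 largest and 3 smallest ratios of each comparison. The members, lists and rule were chosen with earlier results of these data known. Alternatives were a minimum mean, length correction, families, other thresholds and pseudocounts, rescaling, and the sum of Cd3d, Cd3e, Cd3g and Cd247 as reference.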

Additional observations from a re-analysis of the deposited data

Results flagged for a closer look

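Rows that are not TCR beta segments but lie between Trbv1 and Trbv31 had a mean of at least 10 and past 2-fold above control in 4 cases, each from a control mean of at most 2.80. None was tested, since the table holds 1 mean per group, and all were chosen after their values were seen. Gm2663, at chr6:40995830-40999479 on the minus strand, had a mean of 73.9 in TFH cells and 24.3 in libraries labelled Id3-/-, against 0.67 in control CD4SP thymocytes. 2210010C04Rik, at chr6:41030268-41035509 on the minus strand and the last row 5′ of Trbv2, had a mean of 214 in lymphomas, against 2.80 in control. Try10, a trypsin gene at chr6:41354105-41357914, had a mean of 13.4 in Id2-/-Id3-/- CD4SP thymocytes, against 0.93 in control. All 3 genes are annotated as protein coding.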

How the results depend on the processing

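Of 195 alternative values of 55 results, 173 stayed within 1.5 times the reported value, and 22 did not. All alternatives kept the share of cluster 2 among J and C transcripts and the ratios of class sums within this range. A range of 1.5 times is wide for such percentages. Without Trbj2-1 and Trbj2-3, the J share of cluster 2 in Id2-/-Id3-/- CD4SP thymocytes was 54.8%, against 80.6%, and still counted as within it. In control it was 45.2%, against 55.3%. For the C share the only alternative was length correction. The sign of the ratios of class sums was less stable. Of the 15 log2 ratios, none past 2-fold, 8 changed sign relative to the Cd3 sum and 2 relative to the sum of all rows. Relative to the Cd3 sum, lymphomas over control had 0.17 for Trbv, 0.03 for Trbj and 0.28 for Trbc, against -0.38, -0.53 and -0.27 on normalized counts. Summed by family, the leading Trbv share was 60.9% in Id2-/-Id3-/- CD4SP thymocytes, 28.6% in libraries labelled Id3-/- and 27.0% in TFH cells, against 28.8% in control, since Trbv13 has 3 members. By the inverse Simpson index, which weights large shares more, the effective Trbv number in Id2-/-Id3-/- CD4SP thymocytes was 6.51. With only J segments that reached a mean of 10 in a group, fewer segments entered: the effective Trbj number was 4.91 in Id2-/-Id3-/- CD4SP thymocytes, 6.80 in libraries labelled Id3-/- and 6.86 in TFH cells, against 6.89 in control, and Trbj2-3 held 17.0% in TFH cells. For Id2-/-Id3-/- CD4SP thymocytes over control, the count of higher segments was 1 with a pseudocount of 5, a minimum of 50 or 4-fold, and 4 at 1.5-fold or relative to the class sum. The count of lower segments was 7 with a minimum of 50 and 2 at 4-fold. For libraries labelled Id3-/- over control, it was 5 at 1.5-fold and 0 at 4-fold or relative to the class sum. For TFH cells over control, it was 2 at 1.5-fold. For lymphomas over Id2-/-Id3-/- CD4SP thymocytes, the count of higher segments was 2 at 4-fold. The row without a symbol and the J segments left out were added after the data were seen. No paired analysis was possible because the table holds 1 mean per group, and for the same reason no library could be left out. Few J counts, windows shared by the Trbc genes and the lack of values per library limit the cluster comparison.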

Other observations

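ENSMUSG00000076464 has no symbol in the annotation used, so the rule did not count it among the Trbv rows, and it was singled out after its values were seen. It had a mean of 89.0 in Id2-/-Id3-/- CD4SP thymocytes, 146 in libraries labelled Id3-/-, 189 in TFH cells and 295 in lymphomas, against 279 in control CD4SP thymocytes. Set against the Trbv sum, that is 1.73% in Id2-/-Id3-/- CD4SP thymocytes, 3.16% in libraries labelled Id3-/-, 3.63% in TFH cells and 6.69% in lymphomas, against 4.85% in control.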
